A study of Homo sapiens with 4 samples.

Results

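Integrins are adhesion receptors made of 1 alpha and 1 beta chain, and the genes of 8 chains that bind extracellular matrix were followed here in clusters of A549 cells, a human lung adenocarcinoma line. The genes were ITGA1, ITGA2, ITGA3, ITGA5, ITGAV, ITGB1, ITGB5 and ITGB8, chosen by name from the table's gene symbols, and all 8 were among its 16371 listed genes. Each gene's level was the sum of FPKM, fragments per kilobase of transcript, scaled to library size, over its listed transcripts, so levels of different genes could be compared per length. The clusters carried a hairpin construct that targets the phosphatase gene DUSP23, here called shDUSP23, or the control shMock, and each group had 2 libraries. The labels give the genotype of every sample as wild type and the tissue as lung tumor, and the sources used here do not give the number or sequence of the hairpins. Every sample title also carries the suffix SUS, which the labels do not explain. Nothing in the labels says that replicates were separate cultures, so the p-values reflect the spread between libraries alone, which may be technical.

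The alpha chain of an integrin largely sets which ligand is bound. ITGA1 and ITGA2 with ITGB1 form collagen receptors, ITGA3 with ITGB1 a laminin receptor, and ITGA5 with ITGB1 the classical fibronectin receptor, which recognises the RGD motif. ITGA1, ITGA2, ITGA3 and ITGA5 pair with ITGB1 alone, whereas ITGAV pairs with ITGB1, ITGB5, ITGB8 and other beta chains. Lung epithelial cells use these receptors to hold to the basement membrane, and those with ITGAV and ITGB8 are known for activating latent TGF-beta.

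The low FPKM values stood on steps of 1 fragment, which gave 21285000 and 25285000 fragments in shMock and 26975000 and 42300000 in shDUSP23, so that 1 fragment of a 2-kb transcript was worth 0.0118 to 0.0235 FPKM. DUSP23 itself lay at 29.96 and 35.9 FPKM in shMock and 1.71 and 2.71 FPKM in shDUSP23. The listed FPKM summed to 540163 and 578361 in shMock and to 438604 and 446982 in shDUSP23. Over 13691 genes Pearson's r of log2 values was 0.986 within shMock, 0.969 within shDUSP23 and 0.884 to 0.910 across groups. All 5 epithelial markers examined (EPCAM, CDH1, KRT8, KRT18, KRT19) were tested, and 3 fell and 0 rose. Of all tested genes 22.2% fell and 23.1% rose. Of the 5 markers 2 fell and 2 rose with quantile normalization, and 1 fell and 0 rose with all libraries scaled to equal sums. The summed level of the 5 markers was 2111 to 2154 FPKM in shMock and 1634 to 1716 FPKM in shDUSP23. Of 7 fibroblast markers 4 were listed, with a summed level of 2.73 to 3.37 FPKM in shMock and 4.59 to 5.01 FPKM in shDUSP23. None of 4 endothelial markers was listed, and of 5 blood cell markers CD14 and ITGAM were, while PTPRC was not listed. CD14 stood at 4.68 and 8.005 FPKM in shMock and fell to 0.983 and 0.995 FPKM in shDUSP23 (log2 fold change -2.16; limma, Benjamini-Hochberg adjusted p = 0.000783), whereas ITGAM rose from 1.95 and 2.21 FPKM to 7.19 and 5.40 FPKM. Their summed level was 6.63 and 10.2 FPKM in shMock and 8.17 and 6.39 FPKM in shDUSP23. The part of these marker levels in the results below was not tested.

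In shDUSP23 clusters ITGA5 rose 3.58-fold, ITGA1 fell to 0.352 of its shMock mean and ITGB1, the beta chain they share, fell to 0.621 of its mean, although quantile normalization put ITGB1 at a log2 fold change of 0.04 (limma, Benjamini-Hochberg adjusted p = 0.767). The ITGA1 values rest on 2 non-coding transcripts, and its call was lost without either shMock library. In such bulk libraries fewer cells that express a gene and less RNA per cell cannot be told apart. The other 5 chains, ITGA2, ITGA3, ITGAV, ITGB5 and ITGB8, did not pass the test. Thus 3 of 8 chains changed by limma on log2(FPKM + 0.5) at a Benjamini-Hochberg adjusted p under 0.05, 1 of them higher and 2 lower. Of the 13691 genes that averaged 1 FPKM or more, 45.3% changed, 23.1% higher and 22.2% lower, so the share among the chains was not above that of genes at large. The shMock and shDUSP23 values did not overlap for 6 of the 8 chains, against 75.5% of all tested genes. The median log2 fold change, shDUSP23 minus shMock, was 0.10 over the 8 chains and 0.03 over all tested genes.

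**Figure D1:**
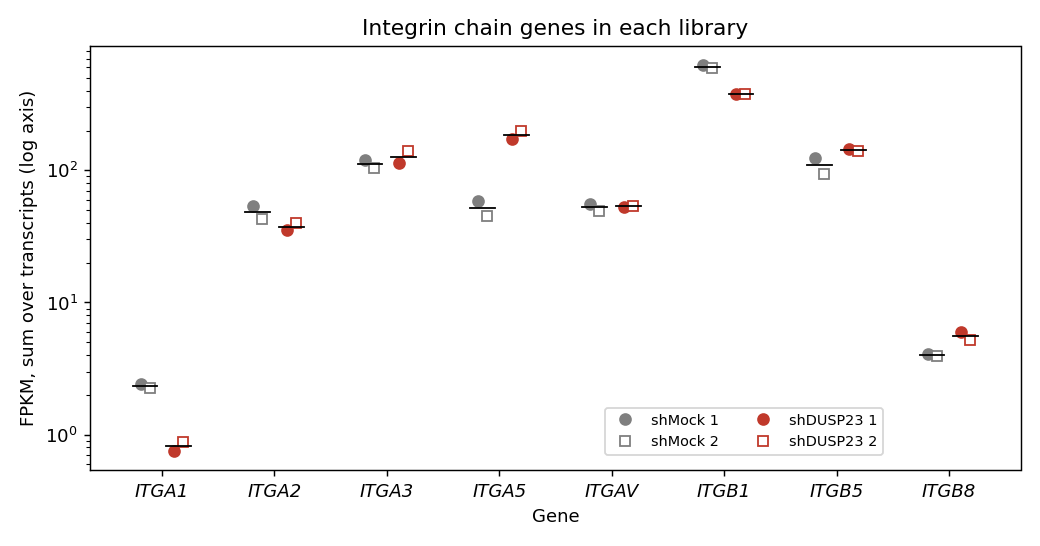
Level of each integrin chain gene in the 4 libraries, in FPKM summed over transcripts on a log axis, with filled symbols for replicate 1, open symbols for replicate 2 and a bar at each group mean. ITGA5 stands between 173 and 197 FPKM in shDUSP23 and between 44.8 and 58.4 FPKM in shMock, and ITGB1 is the highest chain in every library.

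The chains kept much of their order between the groups, and ITGA5 moved the most places. In shMock ITGB1 was the highest, at 607 ± 23.6 FPKM (mean ± SD, n = 2), followed by ITGA3 at 112 ± 10.7 FPKM and ITGB5 at 109 ± 20.9 FPKM. ITGAV, ITGA5 and ITGA2 came next, at 52.6 ± 4.42, 51.6 ± 9.67 and 48.1 ± 7.32 FPKM (n = 2). ITGB8 and ITGA1 were lowest, at 3.99 ± 0.0791 and 2.33 ± 0.118 FPKM (n = 2). The values of ITGA3 and ITGB5 overlapped, as did those of ITGAV, ITGA5 and ITGA2, so the order within these sets was not larger than the spread. In shDUSP23 ITGB1 was again the highest, at 377 ± 1.25 FPKM, and ITGA5 stood in the second place with 185 ± 16.6 FPKM (n = 2). ITGB5 at 142 ± 4.79 FPKM and ITGA3 at 127 ± 17.9 FPKM overlapped with each other and lay below ITGA5 in both libraries. ITGAV at 53.3 ± 0.263 FPKM, ITGA2 at 37.5 ± 3.34 FPKM, ITGB8 at 5.56 ± 0.547 FPKM and ITGA1 at 0.819 ± 0.0934 FPKM (n = 2) followed without overlap. The 8 chains summed to 1041 and 932 FPKM in shMock and 904 and 952 FPKM in shDUSP23, so the groups overlapped in the total.

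Of the collagen-binding alpha chains, ITGA1 (ENSG00000213949) spans bases 52787896 to 52959210 of chromosome 5 (GRCh38, plus strand). It was listed at 2.41 and 2.25 FPKM in shMock and at 0.753 and 0.885 FPKM in shDUSP23. The groups were well apart, with shDUSP23 the lower, and the fitted log2 fold change was -1.10 (SE 0.30, 95% interval -1.79 to -0.42; limma, Benjamini-Hochberg adjusted p = 0.0174). The call was lost without shMock replicate 1 (adjusted p = 0.147) and without shMock replicate 2 (adjusted p = 0.129). The table held 2 ITGA1 transcripts, neither of them protein-coding. ITGA1-208, a transcript annotated as a target of nonsense-mediated decay, made up 92.1% to 97.1% of the gene's level in the 4 libraries, and ITGA1-204, annotated as retaining an intron, the rest. The values therefore describe these transcripts, and a coding ITGA1 transcript was not analysed here. Tested as a transcript, ITGA1-208 did not pass (log2 fold change -1.10; limma over transcripts, Benjamini-Hochberg adjusted p = 0.201). PELO, a gene on the same strand within the ITGA1 locus, stood at 12.5 and 9.13 FPKM in shMock and 11.8 and 18.2 FPKM in shDUSP23, and the sources used here do not say how fragments of the shared stretch were divided.

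ITGA2 (ENSG00000164171), the other collagen-binding alpha chain, neighbours ITGA1 on the plus strand of chromosome 5 from 52989326 to 53094779. Its level was 53.3 and 42.9 FPKM in shMock and 35.2 and 39.9 FPKM in shDUSP23. The groups did not overlap, but the gap between 42.9 and 39.9 FPKM was smaller than the spread within shMock. ITGA2 had a log2 fold change of -0.35 (SE 0.15, 95% interval -0.68 to -0.01; limma, Benjamini-Hochberg adjusted p = 0.0819), and it passed with median-ratio rescaling (-0.41, adjusted p = 0.0473). ITGA2-201, its coding transcript, stood at 42.4 and 35.2 FPKM in shMock and 30.4 and 35.4 FPKM in shDUSP23, with overlap. ITGA2-206, annotated as a nonsense-mediated decay target, stood at 8.24 and 5.23 FPKM in shMock and 2.39 and 2.60 FPKM in shDUSP23, and its log2 fold change of -1.24 did not pass (limma over transcripts, Benjamini-Hochberg adjusted p = 0.104). The coding transcript thus held 79.6% and 82.1% of the gene's level in shMock and 86.5% and 88.7% in shDUSP23.

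The laminin-binding chain gene ITGA3 (ENSG00000005884), on the plus strand of chromosome 17 from 50055968 to 50090481, stood at 120.0 and 105 FPKM in shMock and 114 and 139.7 FPKM in shDUSP23. The groups overlapped, and the log2 fold change was 0.17 (SE 0.14, 95% interval -0.14 to 0.48; limma, Benjamini-Hochberg adjusted p = 0.333). Its 10 listed transcripts did not move alike. The coding ITGA3-202 held 77.5% and 71.3% of the gene's level in shMock and 59.9% and 62.6% in shDUSP23. The 7 transcripts annotated as retaining an intron summed to 25.3 and 24.5 FPKM in shMock and 40.7 and 44.2 FPKM in shDUSP23, or 21.1% and 23.4% of the gene against 35.6% and 31.7%. These shares did not overlap between the groups, but no ITGA3 transcript passed the transcript or the usage test. With protein-coding transcripts alone the gene's log2 fold change was -0.11 (adjusted p = 0.618), and when corrected for GC content and length it was -0.26 (adjusted p = 0.0813), both by limma.

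The RGD-binding chain gene ITGA5 (ENSG00000161638) lies on the minus strand of chromosome 12 from 54395261 to 54419460. Its level was 58.4 and 44.8 FPKM in shMock and 173 and 197 FPKM in shDUSP23, so the lowest shDUSP23 library was well above the highest shMock library. The log2 fold change was 1.84 (SE 0.15, 95% interval 1.50 to 2.18; limma, Benjamini-Hochberg adjusted p = 8.13e-05). It passed in all 18 alternative settings tried, with values from 1.42 after correction for GC content and length to 2.18 with all libraries scaled to equal sums. The transcripts listed for ITGA5 have a GC content of 58.3%, and over all tested genes the log2 fold change had a Spearman's rho of 0.269 with GC content, given as a description since genes are not independent. The difference between the shDUSP23 libraries, replicate 2 minus 1, had a rho of 0.270 with GC content as well. Nearly all of the gene's level came from the coding ITGA5-201, at 55.1 and 41.8 FPKM in shMock and 167 and 189 FPKM in shDUSP23, which is 93.5% to 96.5% of the gene. The 3 other ITGA5 transcripts, all annotated as retaining an intron, summed to 3.35 and 2.91 FPKM in shMock and 6.07 and 7.88 FPKM in shDUSP23.

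ITGAV (ENSG00000138448), the other RGD-binding alpha chain gene, lies on the plus strand of chromosome 2 from 186590065 to 186680901. It stood at 55.7 and 49.5 FPKM in shMock and 53.1 and 53.5 FPKM in shDUSP23, and the shDUSP23 values fell between the shMock values. The log2 fold change was 0.02 with a 95% interval of -0.26 to 0.30 (SE 0.12; limma, Benjamini-Hochberg adjusted p = 0.902), and its sign turned with median-ratio rescaling (-0.04) and without shMock replicate 2 (-0.06). Against ITGAV, ITGA5 stood at 1.05 and 0.904 times its level in shMock and at 3.26 and 3.68 times in shDUSP23.

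ITGAV-201 and ITGAV-202, which together with the shorter ITGAV-204 were the listed coding transcripts, differ at a splice shown here because ITGAV-202, which skips the exons, was called in the test of transcript usage. In GENCODE 29 ITGAV-202 joins exon 4, which ends at chr2:186625587, to the exon that starts at chr2:186636082, and so lacks 2 coding exons of ITGAV-201, chr2:186630797-186630858 with 62 bases and chr2:186633329-186633374 with 46 bases. Together they are 108 bases. The 30 bases across each join are given 5′ to 3′ on the plus strand, with the first 15 bases of the downstream exon in capitals.
ITGAV-202, exon 4 to exon 5: ctccatgtagatcacGTCAGCTTATTTCGG
ITGAV-201, exon 4 to exon 5: ctccatgtagatcacAAGATATTGATGCTG
ITGAV-201, exon 5 to exon 6: attgattttactaaaGCTGACAGAGTACTT

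ITGAV-201 carried most of the gene in every library, at 51.0 and 47.4 FPKM in shMock and 46.9 and 42.9 FPKM in shDUSP23. ITGAV-202 was listed at 1.70 and 0 FPKM in shMock and at 6.24 and 10.6 FPKM in shDUSP23, which is 3.04% and 0% of the gene against 11.7% and 19.8%. ITGAV-204, a shorter coding transcript, was listed at 3.09 and 2.04 FPKM in shMock and at 0 in both shDUSP23 libraries. In the usage test, which sets a transcript's log2 fold change against that of the gene's other transcripts, ITGAV-202 (difference 4.41; limma diffSplice, Benjamini-Hochberg adjusted p = 0.0341) and ITGAV-204 (difference -4.05; adjusted p = 0.0456) passed, as did 1.36% of the 32628 transcripts tested. Neither passed with precision weights, which give low values less weight (adjusted p = 0.270 and 0.538), a setting in which 0.417% of transcripts passed. Both calls were also lost with a pseudocount of 0.1 FPKM (adjusted p = 0.0731 and 0.0699) and with the replicate number as a block (adjusted p = 0.128 and 0.145). These transcripts share much of their sequence, and a listed 0 is what the authors' quantifier assigned, not a count of 0 fragments at the join.

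ITGB1 (ENSG00000150093), the common partner of the alpha chains above, lies on the minus strand of chromosome 10 from 32900319 to 33005792. It was listed at 624 and 590.2 FPKM in shMock and at 376 and 378 FPKM in shDUSP23, and the distance between the groups was far larger than the spread within either. ITGB1 had a log2 fold change of -0.69 (SE 0.11, 95% interval -0.94 to -0.43; limma, Benjamini-Hochberg adjusted p = 0.00171) on the deposited scale, and it was 0.04 under quantile normalization (adjusted p = 0.767), the 1 scaling in which the sign turned. It was -0.35 with all libraries scaled to equal sums (adjusted p = 0.0233), -0.75 with median-ratio rescaling (adjusted p = 0.00180) and -0.46 when corrected for GC content and length (adjusted p = 0.00400). Equal sums moved the median over all tested genes from 0.03 to 0.34 on the log2 scale, and of the changed genes 75.7% were then higher, up from 51.0%.

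**Figure D2:**
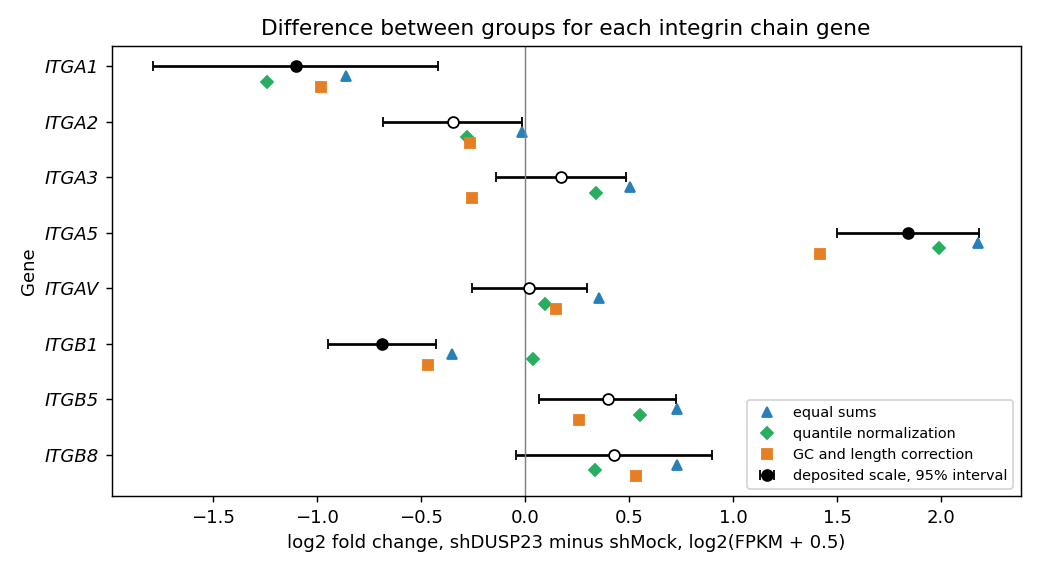
Log2 fold change of each chain gene, shDUSP23 minus shMock, with circles for the deposited scale (filled where the limma adjusted p was under 0.05), bars for 95% intervals, and triangles, diamonds and squares for equal sums, quantile normalization and GC and length correction. ITGA5 stays between 1.42 and 2.18 in all of them, ITGB1 moves from -0.69 to 0.04 with quantile normalization, and ITGA3 moves from 0.17 to -0.26 with the GC and length correction.

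ITGB1 had 26 listed transcripts, 21 of them coding, and the fall in the gene sum came mainly from its most abundant one. ITGB1-201 stood at 492 and 471 FPKM in shMock and 244 and 247 FPKM in shDUSP23 (log2 fold change -0.97; limma over transcripts, Benjamini-Hochberg adjusted p = 0.0296). With quantile normalization its log2 fold change was -0.22 and did not pass (adjusted p = 0.254). It held 78.8% and 79.9% of the gene in shMock and 64.9% and 65.3% in shDUSP23. ITGB1-202, the second most abundant, stood at 50.9 and 43.0 FPKM in shMock and 64.9 and 59.4 FPKM in shDUSP23. Its groups did not overlap, and its log2 fold change of 0.40 did not pass (adjusted p = 0.169). Within each library ITGB1-202 was 0.103 and 0.0912 of ITGB1-201 in shMock and 0.266 and 0.241 of it in shDUSP23. In the usage test ITGB1-201 did not pass in the main fit, which had no weights (limma diffSplice, Benjamini-Hochberg adjusted p = 0.739). It passed with precision weights (difference -1.02, adjusted p = 0.0172) and, without weights, among transcripts of at least 5 FPKM (adjusted p = 0.0263). In the other 14 alternative settings it did not pass. ITGB1-202 did not pass with precision weights (difference 0.87; adjusted p = 0.0963).

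ITGB1-201 and ITGB1-202 differ in their exon 1 in GENCODE 29. That of ITGB1-201 is chr10:32958145-32958209 and that of ITGB1-202 is chr10:32957759-32957894, on the minus strand with 250 bases between them. Both are spliced to the same exon 2, chr10:32935492-32935558, in which the coding sequence starts, and the coding parts of their exons, 2394 bases in 15 exons before the stop codon, are the same. The 30 bases that open the shared coding sequence, chr10:32935529-32935558 on the minus strand, are shown with the start codon in capitals, since both transcripts encode the same protein.
ITGB1-201 and ITGB1-202: ATGaatttacaaccaattttctggattgga

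Of the other ITGB1 transcripts, ITGB1-219 stood at 3.10 and 3.73 FPKM in shMock and 8.62 and 12.4 FPKM in shDUSP23 (log2 fold change 1.47; limma over transcripts, Benjamini-Hochberg adjusted p = 0.0655). ITGB1-204 stood at 29.3 and 19.8 FPKM in shMock and 12.5 and 15.7 FPKM in shDUSP23, and ITGB1-231 at 13.4 and 13.97 FPKM against 13.2 and 9.73 FPKM. Neither passed. The other 21 transcripts stood at 10.2 FPKM or less in every library.

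**Figure D3:**
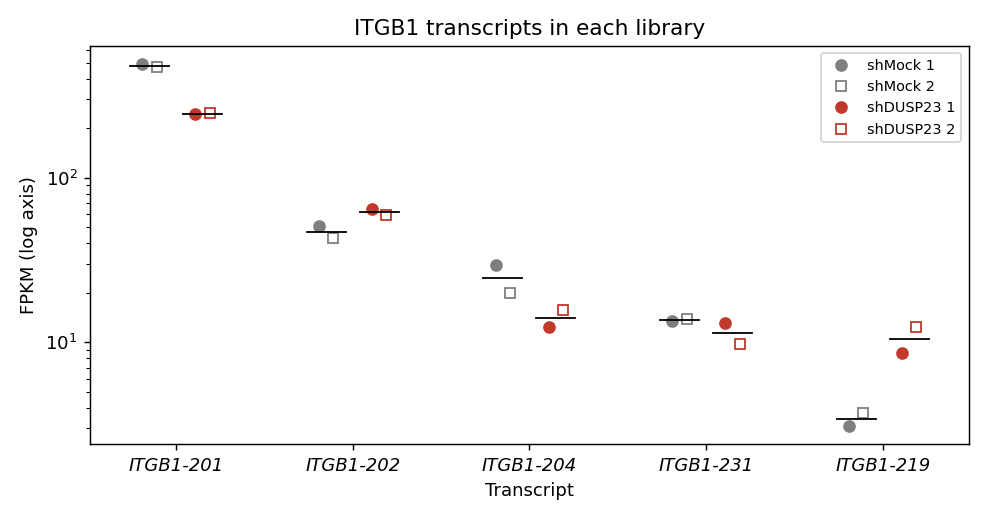
Level of 5 ITGB1 transcripts in the 4 libraries, in FPKM on a log axis, with filled symbols for replicate 1, open symbols for replicate 2 and a bar at each group mean. ITGB1-201 lies at 471 to 492 FPKM in shMock and 244 to 247 FPKM in shDUSP23, while ITGB1-202 and ITGB1-219 are higher in both shDUSP23 libraries than in both shMock libraries.

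Over all 8 genes 61 transcripts were listed and 50 had a mean of at least 1 FPKM. In limma 12 of these had an unadjusted p under 0.05, as did 9550 of the 37453 transcripts tested. The transcript test was passed by 2 of the 50, against 4.15% of all transcripts tested. They were ITGA5-201 (log2 fold change 1.88; limma, Benjamini-Hochberg adjusted p = 0.0297) and ITGB1-201. Both calls were lost when any 1 library was left out (adjusted p from 0.0881 to 0.290 for ITGA5-201 and from 0.0903 to 0.290 for ITGB1-201), and with the replicate number as a block (adjusted p = 0.0700 and 0.0720). In those settings limma passed 0 transcripts of the whole table, although 4768 to 11582 had an unadjusted p under 0.05.

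ITGB5 (ENSG00000082781), the beta chain of a vitronectin receptor with ITGAV, lies on the minus strand of chromosome 3 from 124761948 to 124901418. Its level was 124 and 94.1 FPKM in shMock and 146 and 139 FPKM in shDUSP23. The groups did not overlap, but the spread within shMock was larger than the gap between them. The log2 fold change was 0.40 (SE 0.14, 95% interval 0.07 to 0.73), just short of the threshold (limma, Benjamini-Hochberg adjusted p = 0.0521). It passed in 9 of 18 alternative settings, among them the replicate block (adjusted p = 0.0227), equal sums (0.0033) and quantile normalization (0.0173). ITGB5-201, its most abundant coding transcript, stood at 38.5 and 30.3 FPKM in shMock and 46.4 and 40.8 FPKM in shDUSP23. ITGB5-207, also coding, stood at 12.6 and 9.56 FPKM in shMock and 20.4 and 25.5 FPKM in shDUSP23 (log2 fold change 1.03; limma over transcripts, Benjamini-Hochberg adjusted p = 0.0787). Of its 11 listed transcripts 10 were tested, and none of them passed.

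ITGB8 (ENSG00000105855), on the plus strand of chromosome 7 from 20330702 to 20415754, was low in all libraries. It stood at 4.05 and 3.94 FPKM in shMock and 5.95 and 5.17 FPKM in shDUSP23, without overlap. It had a log2 fold change of 0.43 (SE 0.21, 95% interval -0.04 to 0.90; limma, Benjamini-Hochberg adjusted p = 0.121), and it passed with equal sums (adjusted p = 0.0216) and when corrected for GC content and length (adjusted p = 0.0495). ITGB8-201, the longer of its 2 coding transcripts, held 78.5% to 95.2% of the level. ITGB8 stood at 0.0327 and 0.0418 of ITGB5 in shMock and at 0.0408 and 0.0372 in shDUSP23, with overlap.

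Ratios between chains are the same however a library is scaled by 1 factor, but not under quantile normalization or correction for GC content and length. On the deposited scale ITGA5 over ITGB1 was 0.0937 and 0.0758 in shMock and 0.461 and 0.521 in shDUSP23, a 5.79-fold difference of the group means. ITGA3 over ITGB1 was 0.192 and 0.178 in shMock and 0.304 and 0.370 in shDUSP23, and ITGA2 over ITGB1 was 0.0854 and 0.0727 against 0.0936 and 0.106. ITGA1 over ITGB1 was lower in shDUSP23, at 0.00200 and 0.00234 against 0.00387 and 0.00380. None of these groups overlapped, but the ratios all share ITGB1 as denominator, and 75.5% of all tested genes did not overlap either. From the fitted log2 fold changes, ITGA5 over ITGB1 was 3.86-fold higher in shDUSP23 with quantile normalization and 3.68-fold higher with the GC and length correction. ITGA3 over ITGB1 was then 1.23-fold and 1.16-fold higher, against 1.81-fold on the deposited scale. The direction for ITGA2 over ITGB1 turned with quantile normalization, to 0.802 of shMock, and was 1.15-fold higher with the GC and length correction. Summed, the 4 alpha chains followed here that pair with ITGB1 alone stood at 0.375 and 0.330 of ITGB1 in shMock. In shDUSP23 their sum stood at 0.861 and 0.999 of it. With 2 libraries against 2 an exact two-sided permutation test cannot give a p below 0.333, so no test of a ratio was made. The ratios compare transcript levels and not receptors on the cell surface. They also count non-coding transcripts, which made up all of the ITGA1 level. For ITGA3, transcripts retaining an intron were 21.1% and 23.4% of the gene in shMock and 35.6% and 31.7% in shDUSP23. Ratios between chains were not computed from coding transcripts alone.

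Among the alpha chains followed here that pair with ITGB1 alone, the share of ITGA5 was larger in shDUSP23. Since shares add up to a fixed total, those of the other chains were smaller. Alpha chains outside the followed set, such as ITGA10, were not counted in the total. ITGA5 was 25.0% and 23.0% of their sum in shMock and 53.5% and 52.1% in shDUSP23. ITGA3 was 51.3% and 53.8% in shMock and 35.3% and 37.0% in shDUSP23, while its own level, 1.13 times the shMock mean, did not pass the test. ITGA2 was 22.8% and 22.0% against 10.9% and 10.6%. Like the ratios, these shares count non-coding transcripts, whose part in ITGA3 was larger in shDUSP23. Among the 3 beta chains ITGB1 was 83.0% and 85.8% of the sum in shMock and 71.2% and 72.4% in shDUSP23, ITGB5 16.5% and 13.7% against 27.6% and 26.6%, and ITGB8 0.539% and 0.572% against 1.13% and 0.992%. From the fitted log2 fold changes, ITGB5 over ITGB1 was 2.12-fold higher in shDUSP23 on the deposited scale. It was 1.43-fold higher with quantile normalization and 1.65-fold higher with the GC and length correction.

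**Figure D4:**
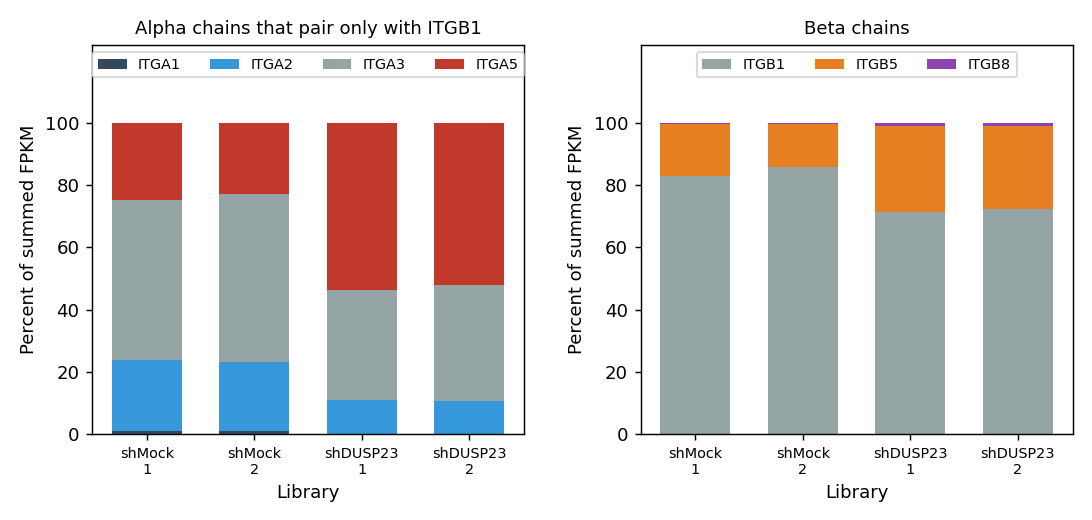
Shares of the alpha chains followed here that pair only with ITGB1 (left) and of the 3 beta chains (right) in each library, as percent of their summed FPKM. Coding and non-coding transcripts are both counted. ITGA5 makes up 23.0% and 25.0% of the alpha chains in shMock and 52.1% and 53.5% in shDUSP23, and ITGB1 makes up 83.0% and 85.8% of the beta chains in shMock and 71.2% and 72.4% in shDUSP23.

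Of 18 other integrin chain genes 11 were listed and 7 tested, of which 5 rose and 1 fell, with a median log2 fold change of 0.77. Beside this list and those below, 23.1% of all tested genes rose and 22.2% fell, with a median of 0.03. In this list 5 rose and 0 fell with all libraries scaled to equal sums. ITGAX, the alpha X chain of myeloid cells, went from 2.16 and 2.25 FPKM to 23.7 and 25.0 FPKM (log2 fold change 3.20; limma, Benjamini-Hochberg adjusted p = 3.12e-05). ITGAM, the alpha M chain of myeloid cells, had a log2 fold change of 1.39. ITGB2, the beta chain that both pair with, was not among the listed genes. ITGB3, another RGD-binding partner of ITGAV, went from 3.89 and 2.67 FPKM to 8.11 and 9.44 FPKM (log2 fold change 1.31). The genes of this list named next were picked with their values in view. ITGA6, a laminin-binding alpha chain gene, rose by a log2 fold change of 0.64, and ITGA10, a collagen-binding one, by 0.77, the latter not past the threshold without shMock replicate 2 (adjusted p = 0.140) or with the GC and length correction (0.48, adjusted p = 0.0661). ITGAE, known from intraepithelial lymphocytes, fell by 0.44 on the log2 scale and did not pass with equal sums (-0.10) or after GC and length correction (-0.07). ITGB4, which pairs with ITGA6 in hemidesmosomes, had a log2 fold change of 0.02, and it was -0.48 after GC and length correction (adjusted p = 0.0109).

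Of 38 matrix ligand genes 28 were tested, 11 rose and 5 fell, beside 23.1% and 22.2% of all tested genes. The median log2 fold change of these ligand genes was 0.31. With equal sums 17 rose and 4 fell, and with the GC and length correction 9 rose and 7 fell. The changes went both ways among ligands of the chains described here. FN1, the gene of fibronectin, which ITGA5 with ITGB1 binds, went from 139.98 and 118 FPKM to 18.3 and 24.7 FPKM (log2 fold change -2.57; limma, Benjamini-Hochberg adjusted p = 3.55e-05), opposite in sign to ITGA5. LAMB3, the gene of the beta chain of laminin-332, a ligand of ITGA3 with ITGB1, went from 22.2 and 19.7 FPKM to 102 and 127 FPKM (log2 fold change 2.41). LTBP3, which encodes a protein that holds latent TGF-beta in the matrix, went from 30.7 and 34.5 FPKM to 84.0 and 90.6 FPKM (log2 fold change 1.41).

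Among 38 tested genes of the adhesion plaque, the proteins that link integrins to actin, 13 rose and 5 fell. Of all tested genes 23.1% rose and 22.2% fell. The median log2 fold change of the plaque genes was 0.15. With equal sums 21 plaque genes rose and 3 fell, and with the GC and length correction 10 rose and 7 fell. PXN, the gene of the scaffold paxillin, went from 31.6 and 30.3 FPKM to 58.1 and 63.6 FPKM (log2 fold change 0.96). The PDZ and LIM domain genes PDLIM7 and PDLIM5 moved apart, PDLIM7 from 91.5 and 92.7 FPKM to 206 and 223 FPKM (log2 fold change 1.22) and PDLIM5 from 135 and 148 FPKM to 58.7 and 54.5 FPKM (log2 fold change -1.32).

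Of 9 membrane proteins that associate with integrins, 6 rose and 1 fell, with a median log2 fold change of 0.80. The tetraspanin genes CD82 and CD81 rose, CD82 from 12.9 and 7.65 FPKM to 45.1 and 52.7 FPKM (log2 fold change 2.24) and CD81 from 99.5 and 98.0 FPKM to 210 and 259 FPKM (log2 fold change 1.24). BSG, the gene of basigin, went from 147 and 154 FPKM to 63.1 and 75.5 FPKM (log2 fold change -1.12). Of 13 tested genes of integrin traffic 6 rose and 2 fell, with a median log2 fold change of 0.37. ARF6, a small GTPase gene of endosomal recycling, rose by 0.81 on the log2 scale, and RAB5A, the gene of an early endosome GTPase, by 0.58. EPS8, the gene of an actin-capping adaptor, went from 44.8 and 45.6 FPKM to 18.4 and 16.4 FPKM (log2 fold change -1.35). In these lists 47.4% to 85.7% of the tested genes changed, against 45.3% of all genes (23.1% higher, 22.2% lower) and 37.5% of the 8 chains. The lists hold as few as 7 tested genes and were chosen with earlier results of these data known. No test compared a list with the rest.

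**Figure D5:**
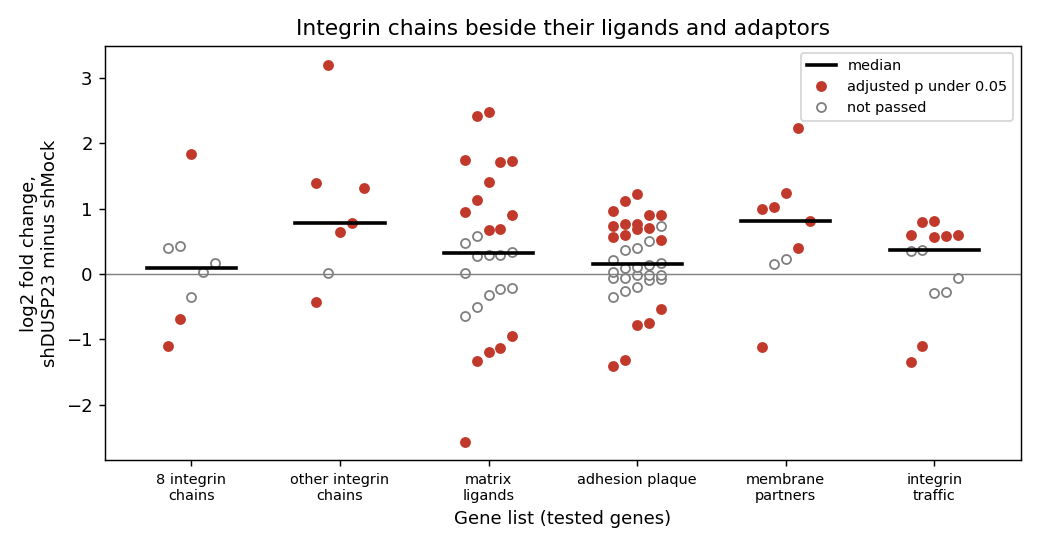
Log2 fold change, shDUSP23 minus shMock, of the tested genes of 6 lists, red where the limma adjusted p was under 0.05 and open where not, with a bar at the median. The medians are 0.10 for the 8 integrin chains, 0.77 for the other integrin chains, 0.31 for the matrix ligands, 0.15 for the adhesion plaque, 0.80 for the membrane partners and 0.37 for integrin traffic, and each list but the other integrin chains and the membrane partners has several genes that did not pass.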

How the data were processed

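RNA from 4 libraries of A549 clusters, 2 shMock and 2 shDUSP23, was sequenced after mRNA library preparation on an Illumina instrument, per the labels' protocols. The authors deposited FPKM values per transcript, and GRCh38, STAR 2.7.1a and DESeq2 1.32.0 stand in the submitters' processing notes. The sources used here do not give the quantifier, the annotation release or the strandedness. Transcripts of 1 gene share fragments, so their separate values depend on the quantifier more than the gene sums do.

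FPKM were summed per gene ID. Genes, and separately transcripts, with a mean of at least 1 FPKM entered limma 3.58.1 as log2(FPKM + 0.5) (eBayes with trend, two-sided, threshold 0.05) in R 4.3.3, and p-values were adjusted by Benjamini-Hochberg over the whole table. A fold change on this scale understates that of low genes. Transcript usage was tested with limma's diffSplice. The scripts were tested on simulated data, where diffSplice without weights called many transcripts of genes whose usage had not been moved, and fewer with precision weights, which were therefore added. Exon structures came from GENCODE 29, which held 93.6% of the listed transcripts. Its transcript ends differ in places from the deposited ones. Depth was recovered from 4981 genes with 1 listed transcript, where 82.8% to 85.3% of values up to 50 fragments were whole within 0.1 fragment. Count models were not run, since values of genes with several transcripts are not whole fragments.

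The members and gene lists were chosen with earlier results of these data known. Named were the 8 members with their transcripts, DUSP23 and, of each list, the 3 tested genes with the smallest p. ITGA6, ITGA10, ITGAE, ITGB4, the unlisted ITGB2 and markers were named in addition, after their values were seen. Replicate numbers are only shared numbers, not stated to pair libraries. Alternatives were pseudocounts of 0.1 and 1 FPKM, no filter or a minimum mean of 5 FPKM, quantile normalization, equal sums, median-ratio rescaling, eBayes without a trend or robust, the replicate block, each library left out and protein-coding transcripts alone. Added after seeing the data were a correction for GC content and length (spline, 5 degrees of freedom) with and without the block, and precision weights. Tables were made in Python 3.11.15 with pandas 2.3.3 and numpy 2.4.6, and figures with matplotlib 3.10.9.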

Additional observations from a re-analysis of the deposited data

How the results depend on the processing

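The number of changed genes was 6202 and ranged from 3464 (without shMock replicate 2) to 6442 when 1 library was left out, with 4038 without shMock replicate 1. The number of changed integrin chains was 3, ranged from 2 to 3 with 1 library left out, and was 6 with equal sums, where ITGA3, ITGB5 and ITGB8 passed as well. The number of changed transcripts was 1554. It was 463 without a filter, 3408 at a mean of at least 5 FPKM, and 0 in limma without a trend, with the replicate block, with GC and length correction plus the block, and with any 1 library left out (0 to 0), while 4768 to 11582 had an unadjusted p under 0.05 in these settings. The number of transcripts called in the usage test was 444. It was 191 at a mean of at least 5 FPKM, 135 with the replicate block, 137 with GC and length correction plus the block, 136 with precision weights, and 15 to 3158 with 1 library left out. The log2 fold change turned its sign for ITGA3 (-0.26 with GC and length correction, the same with the block added, and -0.11 with coding transcripts alone), ITGAV (-0.041 with median-ratio rescaling, and -0.064 without shMock replicate 2 in a range up to 0.11 with 1 library left out) and ITGB1 (0.0402 with quantile normalization). It also did for ITGB4 (-0.043 with median-ratio rescaling, -0.13 with coding transcripts alone, -0.48 with GC and length correction, with or without the block, and from -0.053 to 0.091 with 1 library left out, negative without shMock replicate 2 or shDUSP23 replicate 2). Of transcripts it did for ITGAV-201 (0.042 with quantile normalization, 0.20 with equal sums), ITGA2-201 (0.10 with equal sums) and ITGA3-202 (0.16 with quantile normalization, 0.23 with equal sums, and from -0.28 to 0.067 with 1 library left out, positive without shMock replicate 1 or shDUSP23 replicate 1). The cause was not tested.

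With the replicate number as a block 6707 genes and 4 integrin chains changed, ITGB5 being the added one. Deviations of same-numbered libraries from their group means had a correlation of 0.0528 with 2 pairs. The eBayes fit without a trend was not run for usage. ITGA1 had no value with coding transcripts alone or at a mean of at least 5 FPKM.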
